A study of Mus musculus with 12 samples.

Results

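The cytochrome P450 enzymes of families 1 to 3 carry out most of the first, oxidative step by which liver clears drugs, other foreign chemicals and steroids. Their genes were taken here as every symbol beginning with Cyp1, Cyp2 or Cyp3 followed by a subfamily letter and a number, without the Cyp2a subfamily. This gave 53 genes among the 22322 symbols of the deposited tables, with 15 in Cyp2c, 8 in Cyp2d, 7 each in Cyp2j and Cyp3a, 5 in Cyp2b, 2 in Cyp1a and 1 each in 9 further subfamilies. Their RNA was measured by RNA sequencing in livers of 12 male C57BL/6 mice aged 8 weeks, 3 in each of 4 groups. WT mice were homozygous for a Bmal1 allele with loxP sites around an exon (Bmal1 flox/flox), and KO mice carried the same alleles plus a liver-specific CRE recombinase, whose promoter is not given in the labels. No CRE is stated for WT mice, so an effect of CRE itself and of the deletion cannot be told apart. Both genotypes were killed at circadian time 0 h (CT0) and 12 h (CT12) after a change from light and dark cycles to complete darkness, where CT0 is when lights would have come on. BMAL1, the product of Arntl, is the clock factor that binds DNA together with CLOCK, and the comparison asks how the levels of these enzymes' RNAs depended on it at opposite times of day.

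P450 enzymes of these families sit in the endoplasmic reticulum, hold a haem group and receive electrons from P450 oxidoreductase, encoded by Por. In liver many are switched on by receptors that sense foreign chemicals, among them CAR (Nr1i3), PXR (Nr1i2) and the aryl hydrocarbon receptor (Ahr). Most are made in hepatocytes, many of them near the central vein. In rodents several are made mainly in 1 sex under the control of growth hormone. Some take endogenous substrates such as arachidonic acid, bile acids, steroids and vitamin D.

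Values are RPKM, read numbers divided by transcript length and by library size, so that levels can be compared between genes. Depth recovered from the values was about 11500000 to 19000000 reads a sample, 1 read on a transcript of 2 kb was worth 0.0263 to 0.0436 RPKM, and Pearson's r between replicates was 0.979 to 0.989. A gene was tested if its mean reached 1 RPKM in at least 1 group, which 10799 genes did. Differences are on the log2(RPKM + 1) scale with adjusted p-values from limma over all genes tested, and "called" means an adjusted p under 0.05. That scale understates changes of genes near or under 1 RPKM. The values for Arntl over the whole transcript were 16.3, 15.7 and 15.7 RPKM in WT at CT0, 1.26, 0.680 and 1.21 in WT at CT12, 5.91, 5.73 and 7.45 in KO at CT0 and 4.37, 3.59 and 4.01 in KO at CT12. Such a value does not show the deleted exon, but KO samples lay under WT at CT0 and over WT at CT12. Alb, the defining hepatocyte marker, was at 14012 RPKM or more in all samples. In RNA from whole liver, fewer cells of a type and less RNA per cell cannot be told apart.

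Of the 53 genes, 37 passed the filter and 16 did not. The most abundant was Cyp2e1, which oxidises ethanol and acetaminophen, with 1836, 2515 and 2482 RPKM in WT at CT0 and 3812, 3370.3 and 4026 in WT at CT12. In KO it measured 1329.9, 2523 and 2052 RPKM at CT0 and 3320.4, 2945 and 2938 at CT12. Next came Cyp3a11, the main Cyp3a gene of mouse liver, and Cyp2c29, an inducible epoxygenase. These 3 genes held 49.7% to 61.2% of the summed RPKM of the 53, and 17 genes had a mean of at least 100 RPKM. All 53 together took 1.69% to 2.94% of the RPKM of all symbols. The lowest sum was in WT at CT0 and the highest in KO at CT12. At CT0 the 3 KO sums (11471, 12197 and 11925 RPKM) lay above the 3 WT sums (8116, 10060.5 and 9679.8 RPKM), while at CT12 the genotypes overlapped.

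**Figure D1:**
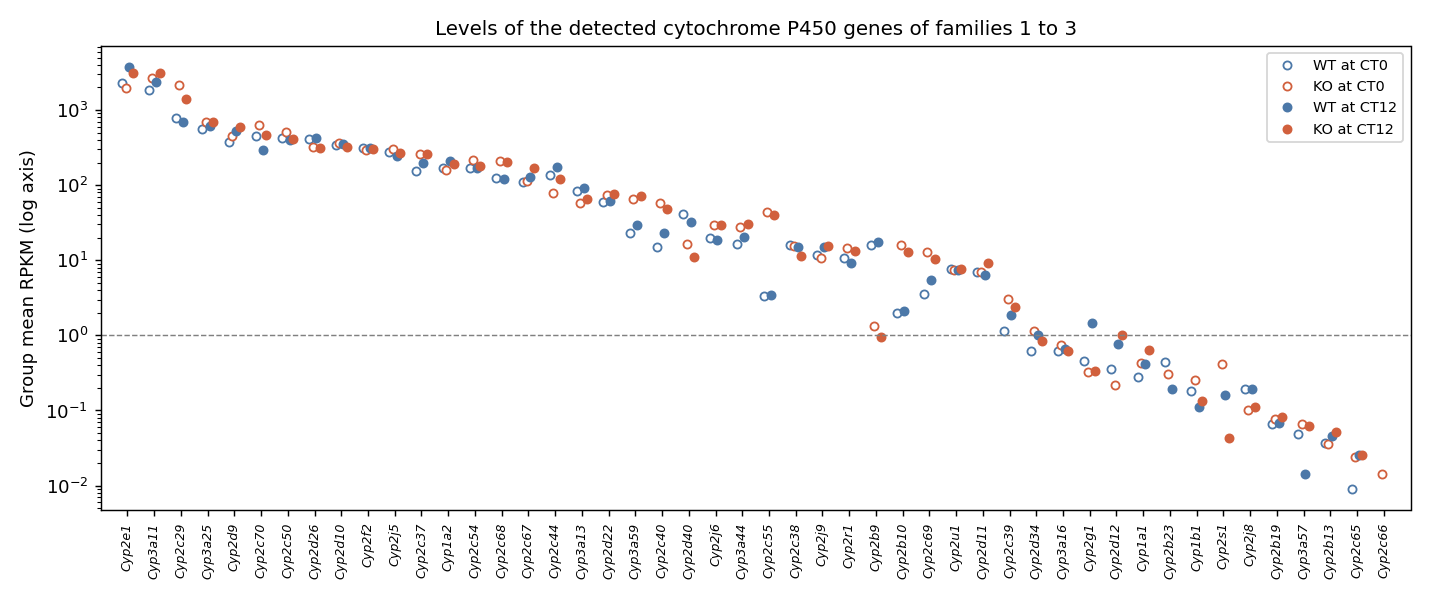
Group mean RPKM, on a log axis, of the 48 genes with a value above 0 in at least 1 sample, ordered by their mean over 12 samples. Open circles are CT0, filled circles CT12, blue WT and red KO, and the dashed line marks 1 RPKM. Means reach 3736 RPKM for Cyp2e1 in WT at CT12, and groups at 0 are not drawn.

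The 16 genes under the filter had group means of at most 0.735 RPKM and no single value above 1.52 RPKM. They were Cyp1a1, Cyp1b1, Cyp2b13, Cyp2b19, Cyp2b23, Cyp2c65, Cyp2c66, Cyp2j8, Cyp2j11, Cyp2j12, Cyp2j13, Cyp2s1, Cyp2t4, Cyp2w1, Cyp3a16 and Cyp3a57. Cyp1a1, the inducible target of the aryl hydrocarbon receptor, had means of 0.280 and 0.413 RPKM in WT and 0.432 and 0.630 RPKM in KO at CT0 and CT12. Cyp2j11, Cyp2j12, Cyp2j13, Cyp2t4 and Cyp2w1 had no read in any sample, and 3 reads in the shallowest library would have been at most 0.173 RPKM for any of them. That limit covers counting error only.

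Between genotypes, over both times together, 17 of the 37 genes were called, 11 higher and 6 lower in KO. Among all genes tested 11.5% were called, 7.44% higher and 4.03% lower. At CT0, 6 were called, 5 higher and 1 lower, where 1.86% of all genes were called, 1.02% higher and 0.843% lower. At CT12, 11 were called, 8 higher and 3 lower, where 10.5% of all genes were called, 6.97% higher and 3.49% lower. At an unadjusted p under 0.05 the numbers were 20 at CT0, 16 at CT12 and 20 over both times. The share of all genes at that limit was not computed, so counts by unadjusted p are a description only. Cyp2g1, 1 of the genes called lower at CT12 and over both times, passed the filter only through WT at CT12, so those calls are no support for a fall. The median difference of the 37 genes was 0.27 at CT0 and 0.20 at CT12 on the log2 scale, and that of all genes tested was 0.01 and 0.08. The sign was the same at both times for 31 of the 37, a count for which no share of all genes was computed. For 13 of the 37 all KO samples lay on the same side of all WT samples at CT0 and again at CT12, 9 above and 4 below, as did 7.4% of all genes tested. No gene was called for a genotype difference that changed with time (limma, against 1.49% of all genes), and 2 had an unadjusted p under 0.05, Cyp2g1 and Cyp2d11. Without the filter on low values 3 were called at CT0, 5 at CT12 and 8 over both times, the 8 being Cyp2b10, Cyp2c29, Cyp2c55, Cyp2d22, Cyp2d40, Cyp2j6, Cyp2r1 and Cyp3a59. The share of all genes called without the filter was not computed.

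**Figure D2:**
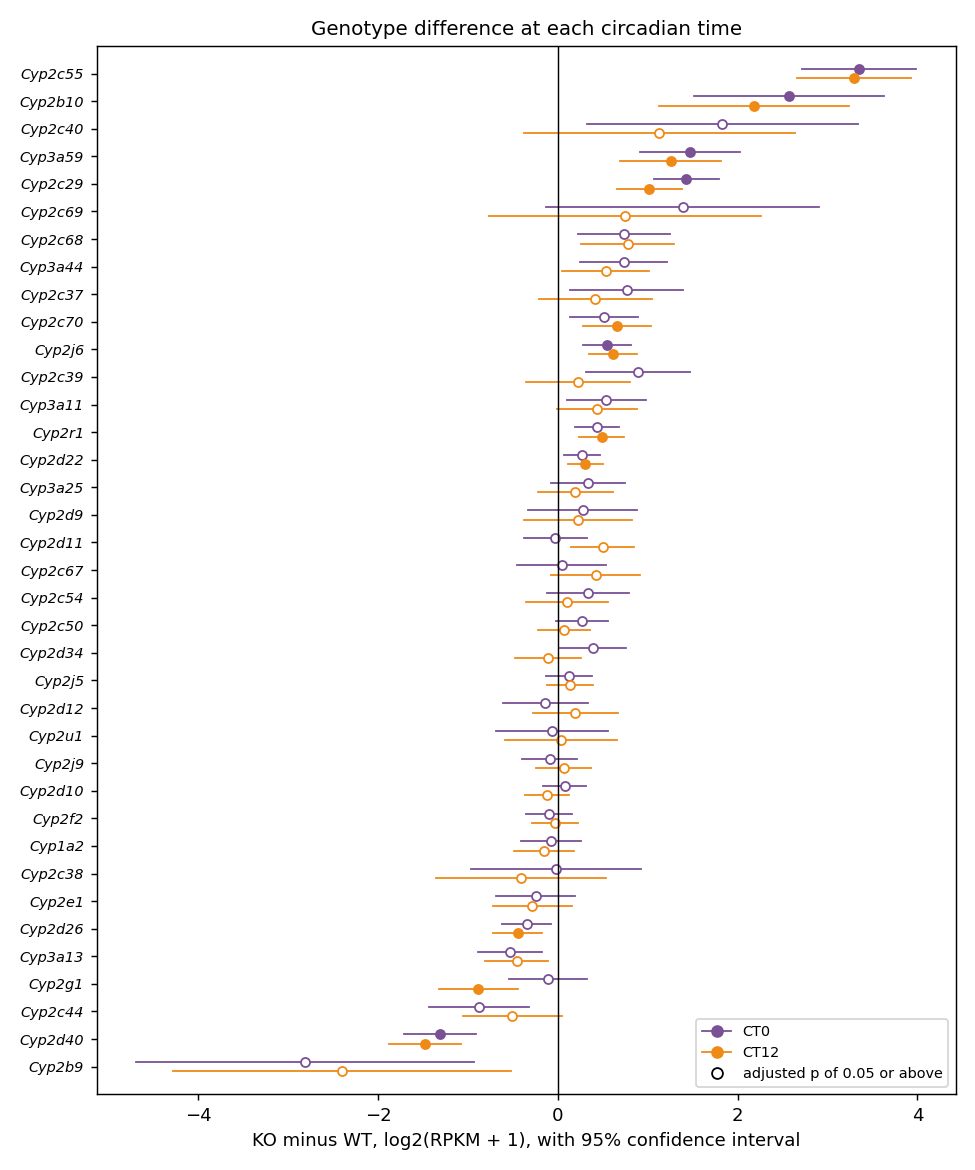
KO minus WT difference in log2(RPKM + 1) with its 95% confidence interval for the 37 genes past the filter, at CT0 (purple) and CT12 (orange), ordered by the difference over both times. Filled points have an adjusted p under 0.05. Cyp2c55 and Cyp2b10 stand highest and Cyp2b9 and Cyp2d40 lowest, with the intervals of Cyp2b9, Cyp2c40 and Cyp2c69 the widest.

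The Cyp2c genes, whose products make epoxides and alcohols of arachidonic and linoleic acid and oxidise drugs, lay in clusters on chromosome 19 and held the largest rise. Of 13 past the filter, 4 rose and 1 fell over both times, 2 rose at CT0 and 3 rose at CT12, and the median difference over both times was 0.59. Cyp2c55 (chromosome 19, bases 39081509 to 39117183, NCBIM37), a gene known to respond to ligands of CAR and PXR, measured 2.41, 3.93 and 3.56 RPKM in WT at CT0 and 54.4, 43.3 and 32.5 in KO at CT0. At CT12 it measured 3.98, 4.92 and 1.49 RPKM in WT and 32.4, 46.5 and 42.8 in KO. All 6 KO samples lay above all 6 WT samples, with no overlap at either time. The mean RPKM was 13.2-fold higher in KO at CT0 and 11.7-fold higher at CT12, and the log2 differences were 3.36 ± 0.29 (SE, adjusted p = 8.8e-05) and 3.29 ± 0.29 (SE, adjusted p = 2.4e-05). No window of 50 bases of its transcript was shared with the coding transcripts of another gene.

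Cyp2c29 was far more abundant and rose less. It measured 714, 885 and 749.7 RPKM in WT and 2649, 1966 and 1785 in KO at CT0. At CT12 the values were 831, 590.5 and 654 RPKM in WT and 1581, 1239.7 and 1366 in KO. Every KO sample was above every WT sample. The rise was 2.72-fold at CT0, with a log2 difference of 1.43 ± 0.17 (SE, adjusted p = 0.0011), and 2.02-fold at CT12, with 1.02 ± 0.17 (SE, adjusted p = 0.0021). At CT0 its mean gained more RPKM than that of any other gene of the 53, with 2133 RPKM in KO against 783 in WT. The calls for Cyp2c55, Cyp2c29 and Cyp2d40 in the 3 genotype comparisons held under every alternative that was run.

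The promoter windows of Cyp2c55 and Cyp2c29 are shown because both genes rose at both times. The RefSeq windows run from 250 bases before to 50 bases after the annotated start and were placed on NCBIM37 by exact match, at chr19:39081259-39081558 (plus strand) and chr19:39361325-39361624 (plus strand), and neither holds the E-box, D-box or aryl hydrocarbon receptor motifs described below.
Cyp2c55: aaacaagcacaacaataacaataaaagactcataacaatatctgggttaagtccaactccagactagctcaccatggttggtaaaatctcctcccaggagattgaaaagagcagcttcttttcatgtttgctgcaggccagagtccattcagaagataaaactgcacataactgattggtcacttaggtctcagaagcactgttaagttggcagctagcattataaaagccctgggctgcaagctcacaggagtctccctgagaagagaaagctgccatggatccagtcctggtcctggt
Cyp2c29: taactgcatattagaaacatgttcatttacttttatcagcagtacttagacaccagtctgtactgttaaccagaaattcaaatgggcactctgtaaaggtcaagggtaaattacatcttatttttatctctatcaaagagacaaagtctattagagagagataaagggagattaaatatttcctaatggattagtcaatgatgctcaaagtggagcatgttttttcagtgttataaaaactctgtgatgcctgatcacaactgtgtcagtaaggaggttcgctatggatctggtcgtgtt
Between them 180 of 323 aligned columns (55.7%) were identical.

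Cyp2c70, whose enzyme makes the muricholic acids of mouse bile, measured 606, 420.1 and 345 RPKM in WT and 639, 652 and 613 in KO at CT0. At CT12 it was lower in both genotypes, with 345, 270.5 and 277 RPKM in WT and 512, 487 and 415 in KO. KO lay above WT without overlap at both times, though replicate 1 of WT at CT0 came close. It rose in KO at CT12 by 0.66 ± 0.17 (SE, adjusted p = 0.03) and over both times by 0.59 ± 0.12 (SE, adjusted p = 0.0089). The difference at CT0 was 0.51 (adjusted p = 0.19), and 0.73 (adjusted p = 0.027) without replicate 1 of WT at CT0. The call at CT12 was lost without replicate 2 or 3 of WT or replicate 1 or 2 of KO at CT12 (adjusted p = 0.089 to 0.10). Both calls were lost without the filter (adjusted p = 0.12 at CT12 and 0.0502 over both times).

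Cyp2c44, an epoxygenase of arachidonic acid, was the 1 Cyp2c gene that fell. It measured 137, 156 and 113 RPKM in WT and 43.9, 105 and 83.1 in KO at CT0, and 184, 157 and 173 in WT and 98.7, 132 and 134 in KO at CT12. KO samples lay below WT samples at both times, 1.75-fold lower in the mean at CT0 and 1.41-fold lower at CT12. The fall passed the test over both times, at -0.69 ± 0.18 (SE, adjusted p = 0.027), and at neither time alone (adjusted p = 0.12 and 0.25). Leaving out any 1 of replicates 1 and 2 of WT at CT0, replicates 1 and 3 of WT at CT12 and replicate 1 of KO at CT12 lost the call (adjusted p = 0.054 to 0.070). The call was also lost without the filter (adjusted p = 0.12). No 50-base window of Cyp2c44 or Cyp2c70 was shared with another gene.

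Cyp2c68 rose over both times, by 0.76 ± 0.17 (SE, adjusted p = 0.012). Its values were 119, 142 and 113 RPKM in WT and 199, 199.8 and 226 in KO at CT0, and 134, 71.5 and 159 in WT and 183, 175 and 242 in KO at CT12, with no overlap at either time. Cyp2c68 is uncertain as a single gene, because 43.3% of its 50-base windows also occur in other genes, with Cyp2c40 the closest at 98.0% identity. If each read was counted once, the sum of Cyp2c40, Cyp2c67, Cyp2c68 and Cyp2c69 does not depend on how reads were split, apart from length. How reads with several matches were counted is not given. That sum was 255 ± 33.9 RPKM (SD, n = 3) in WT and 393 ± 25.0 RPKM in KO at CT0, a ratio of 1.54. At CT12 it was 278 ± 97.1 RPKM in WT and 428 ± 91.3 RPKM in KO, also a ratio of 1.54. The KO sums lay above the WT sums at both times. The call for Cyp2c68 alone was lost without the filter (adjusted p = 0.071).

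The other 8 Cyp2c genes were not called in any comparison, with differences over both times from -0.21 (Cyp2c38) to 1.48 (Cyp2c40). Cyp2c37, Cyp2c50 and Cyp2c54 code for epoxygenases of the same fatty acids and share much of their sequence. Their sum was 753 ± 116 RPKM in WT and 990.2 ± 59.9 RPKM in KO at CT0, and 771 ± 194 and 855 ± 97.0 RPKM at CT12 (SD, n = 3). Cyp2c50, the highest of them, measured 392, 482 and 409 RPKM in WT and 507, 525 and 511 in KO at CT0, without overlap. At CT12 its values were 446, 311 and 450.2 RPKM in WT and 441, 401 and 409.5 in KO, which overlapped. Its difference over both times was 0.17 with a 95% interval of -0.03 to 0.38. Cyp2c39 was higher in KO at CT0 without overlap (3.05 against 1.16 RPKM) but did not pass the test (adjusted p = 0.13).

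The Cyp2b pair past the filter went opposite ways. Cyp2b10 (chromosome 7, bases 26682639 to 26711643) is the classic target of CAR and Cyp2b9 (chromosome 7, bases 26958430 to 26995680) a female-predominant steroid hydroxylase of the same cluster. Cyp2b10 measured 0.987, 3.98 and 1.07 RPKM in WT and 24.1, 12.9 and 11.3 in KO at CT0. At CT12 it measured 1.84, 0.598 and 3.85 RPKM in WT and 11.5, 6.76 and 20.4 in KO. The lowest KO value was above the highest WT value. Cyp2b10 was 8.00-fold higher in KO at CT0, with a log2 difference of 2.57 ± 0.48 (SE, adjusted p = 0.021), and 6.15-fold higher at CT12, with 2.187 ± 0.48 (SE, adjusted p = 0.013). The call at CT0 was lost without replicate 1 or 3 of WT or replicate 1 of KO at CT0 (adjusted p = 0.072 to 0.087), and that at CT12 without replicate 2 of WT or replicate 3 of KO at CT12 (adjusted p = 0.051 and 0.055). Without the filter both of these calls were lost (adjusted p = 0.14 at CT0 and 0.084 at CT12). The call over both times, 2.38 ± 0.34 (SE, adjusted p = 7.8e-04), held in all of these.

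Cyp2b9 measured 6.69, 15.9 and 26.0 RPKM in WT and 1.502, 2.28 and 0.233 in KO at CT0. At CT12 it measured 3.67, 2.25 and 45.9 RPKM in WT and 0.0739, 0.282 and 2.50 in KO. KO lay below WT without overlap at CT0, whereas at CT12 the highest KO value, replicate 3, was above the WT value of replicate 2. WT replicate 3 at CT12 was far above the others, and the WT mean there rests on that mouse. Cyp2b9 fell over both times, with a log2 difference of -2.61 ± 0.61 (SE, adjusted p = 0.016). At CT0 and CT12 alone the differences were -2.81 and -2.40 (adjusted p = 0.14 and 0.1). Without replicate 3 of WT at CT12 the spread was smaller and the fall at CT0 passed the test (adjusted p = 0.027), and without the filter the call over both times was lost (adjusted p = 0.093).

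The promoter windows of 3 Cyp2b genes are shown because the genes differ so much in level and direction. The windows lie at chr7:26682427-26682726 (plus strand), chr7:26958178-26958477 (plus strand) and chr7:26846264-26846563 (plus strand) on NCBIM37, and capitals mark the core of the aryl hydrocarbon receptor element, GCGTG or its complement CACGC.
Cyp2b10: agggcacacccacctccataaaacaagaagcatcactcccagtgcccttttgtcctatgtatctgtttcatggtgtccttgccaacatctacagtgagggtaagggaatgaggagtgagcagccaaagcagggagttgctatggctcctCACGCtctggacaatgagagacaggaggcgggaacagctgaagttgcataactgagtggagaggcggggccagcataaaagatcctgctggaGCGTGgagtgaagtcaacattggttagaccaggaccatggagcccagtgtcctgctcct
Cyp2b9: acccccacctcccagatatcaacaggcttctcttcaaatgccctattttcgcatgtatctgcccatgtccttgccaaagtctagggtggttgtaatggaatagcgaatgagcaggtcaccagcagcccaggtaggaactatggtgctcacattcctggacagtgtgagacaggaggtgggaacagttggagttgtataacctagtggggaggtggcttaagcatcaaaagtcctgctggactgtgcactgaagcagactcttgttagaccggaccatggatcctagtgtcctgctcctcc
Cyp2b13: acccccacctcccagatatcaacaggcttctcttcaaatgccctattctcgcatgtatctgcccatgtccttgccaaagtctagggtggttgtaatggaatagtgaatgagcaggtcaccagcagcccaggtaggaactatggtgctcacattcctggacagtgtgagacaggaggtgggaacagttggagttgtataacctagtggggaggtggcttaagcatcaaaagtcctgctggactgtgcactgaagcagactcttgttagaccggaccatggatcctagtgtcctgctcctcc
Cyp2b10 and Cyp2b9 were identical at 230 of 314 aligned columns (73.2%). Cyp2b9 and Cyp2b13 were identical at 298 of 300 (99.3%), yet Cyp2b13 had no value above 0.156 RPKM in any sample. Between the transcripts of Cyp2b9 and Cyp2b13 the identity was 89.2%, and 10.8% of the 50-base windows of Cyp2b9 occurred in another gene.

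The Cyp3a genes, whose enzymes have wide active sites and oxidise many drugs and steroids, lay on chromosome 5. Of 5 past the filter 3 rose and 1 fell over both times, with a median of 0.49. Cyp3a11 measured 1484, 2126 and 1961 RPKM in WT and 2587, 2686 and 2748 in KO at CT0, and 3162, 2015 and 1876 in WT and 2527, 3713 and 3159 in KO at CT12. KO lay above WT at CT0, and the genotypes overlapped at CT12, where WT replicate 1 was above KO replicates 1 and 3. It rose over both times by 0.49 ± 0.14 (SE, adjusted p = 0.046). That call was lost when any 1 of 10 of the 12 libraries was left out (adjusted p = 0.051 to 0.11). It was also lost under the replicate block (adjusted p = 0.072) and without the filter (adjusted p = 0.21). At neither time alone did Cyp3a11 pass the test (adjusted p = 0.23 and 0.2).

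Cyp3a59 (chromosome 5, bases 146890834 to 146924861) measured 15.5, 25.6 and 27.4 RPKM in WT and 46.0, 59.6 and 92.1 in KO at CT0. Its values at CT12 were 33.9, 30.0 and 24.9 RPKM in WT and 63.6, 89.7 and 64.1 in KO. All KO samples lay above all WT samples. The mean was 2.89-fold higher in KO at CT0, with a log2 difference of 1.47 ± 0.26 (SE, adjusted p = 0.014), and 2.45-fold higher at CT12, with 1.26 ± 0.26 (SE, adjusted p = 0.0084). Without the filter the calls at the single times were lost (adjusted p = 0.11 and 0.057), and without replicate 3 of both genotypes at CT12 that at CT12 was lost (adjusted p = 0.065). Of its 50-base windows 28.3% occur in other genes, and Cyp3a25 is the closest at 97.0% identity, so that Cyp3a59 is uncertain as a single gene. The sum of Cyp3a25 and Cyp3a59 was 574 ± 127 RPKM (SD, n = 3) in WT and 768 ± 225 RPKM in KO at CT0, a ratio of 1.34 with overlapping genotypes. At CT12 that sum was 641 ± 47.8 RPKM in WT and 773 ± 33.0 RPKM in KO, a ratio of 1.21 without overlap. Cyp3a25 itself was measured on a transcript of 513 bases and had 416, 594 and 644 RPKM in WT and 554, 621 and 931 in KO at CT0. At CT12 Cyp3a25 had 641, 556 and 637 RPKM in WT and 703, 719 and 679 in KO. Its difference over both times was 0.27 with an interval of -0.02 to 0.56 (adjusted p = 0.24), and its genotypes overlapped at CT0 but not at CT12.

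Cyp3a44, a female-predominant member, measured 11.8, 22.3 and 15.2 RPKM in WT and 28.9, 22.4 and 30.8 in KO at CT0, and 22.9, 19.8 and 18.2 in WT and 22.5, 37.03 and 31.3 in KO at CT12. The groups lay next to each other at CT0, where the highest WT and the lowest KO value were 22.3 and 22.4 RPKM, and overlapped at CT12. It rose over both times by 0.63 ± 0.16 (SE, adjusted p = 0.021). The call was lost without replicate 3 of WT at CT12, replicate 3 of KO at CT0 or replicate 2 of KO at CT12 (adjusted p = 0.051 to 0.052). Leaving the filter out lost that call as well (adjusted p = 0.098). Cyp3a13, also expressed in the gut, went the other way. It measured 83.3, 79.4 and 89.1 RPKM in WT and 45.6, 61.9 and 68.2 in KO at CT0, and 106, 73.4 and 96.7 in WT and 70.1, 57.2 and 71.5 in KO at CT12. KO lay below WT at both times, and the fall over both times was called, at -0.49 ± 0.11 (SE, adjusted p = 0.015). That call was lost under 2 of 18 alternatives, 1 of them without the filter (adjusted p = 0.072). Cyp3a13, Cyp2r1 and Cyp2d22 fell outside the rule for genes to be named and were added after their values were seen, because they were called.

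The Cyp2d genes lay on chromosome 15 and include the mouse relatives of human CYP2D6, an enzyme of many antidepressants and opioids. All 8 passed the filter, and over both times 1 rose, 2 fell and 5 were not called, with a median of 0.08. Cyp2d40 (chromosome 15, bases 82590265 to 82594613) measured 40.6, 34.9 and 49.5 RPKM in WT and 21.9, 13.2 and 14.4 in KO at CT0. By CT12 the values were 30.5, 39.5 and 28.3 RPKM in WT and 10.99, 10.5 and 11.6 in KO. No KO sample reached a WT sample. The fall was 2.53-fold at CT0, with a log2 difference of -1.31 ± 0.18 (SE, adjusted p = 0.0044), and 2.97-fold at CT12, with -1.48 ± 0.18 (SE, adjusted p = 2.9e-04). Of its 50-base windows 24.5% occur in another gene, Gm5062 being the closest at 94.9% identity, and its level as a single gene is uncertain for that reason.

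Cyp2d26, the most abundant of those that fell, measured 387, 407 and 436 RPKM in WT and 298, 319.8 and 351 in KO at CT0, and 412, 368 and 486 in WT and 277, 291 and 363 in KO at CT12. KO lay below WT at both times, with a log2 difference of -0.39 ± 0.09 (SE, adjusted p = 0.013) over both. The call over both times was lost without the filter (adjusted p = 0.052). The call at CT12, -0.44 ± 0.13 (SE, adjusted p = 0.043), was lost when any 1 of 9 of the 12 libraries was left out (adjusted p = 0.051 to 0.16). Cyp2d22, often taken as the mouse counterpart of CYP2D6, rose a little. It measured 57.1, 58.5 and 65.7 RPKM in WT and 74.3, 69.1 and 75.7 in KO at CT0, and 68.3, 55.8 and 61.5 in WT and 76.9, 74.3 and 78.8 in KO at CT12. It did not overlap between genotypes at either time and rose over both times by 0.29 ± 0.06 (SE, adjusted p = 0.012). That call was lost under 1 alternative (adjusted p = 0.058). Its spread within groups, an SD of 0.098 on the log2 scale, was the smallest of the 37. Its call at CT12 alone, 0.31 ± 0.09 (SE, adjusted p = 0.049), was lost when any 1 of 10 libraries was left out (adjusted p = 0.051 to 0.16). Cyp2d9, the male-predominant steroid hydroxylase, measured 306, 358 and 464 RPKM in WT and 453, 411 and 486 in KO at CT0. The CT12 values were 657, 647 and 287 RPKM in WT and 663, 629 and 467 in KO, with overlap at both times and a difference over both of 0.25 (interval -0.18 to 0.68).

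Among the smaller subfamilies Cyp2j6 and Cyp2r1 rose. Cyp2j6 is a relative of the human epoxygenase CYP2J2 and was steady within groups. It measured 18.2, 20.6 and 20.4 RPKM in WT and 33.4, 26.2 and 28.7 in KO at CT0, and 22.5, 16.5 and 17.6 in WT and 30.1, 30.4 and 27.1 in KO at CT12. All KO samples lay above all WT samples. Its log2 difference was 0.55 ± 0.12 (SE, adjusted p = 0.045) at CT0 and 0.61 ± 0.12 (SE, adjusted p = 0.0073) at CT12. The call at CT0 was lost when any 1 of 9 libraries was left out (adjusted p = 0.050 to 0.14) and under the replicate block (adjusted p = 0.054), while that at CT12 held in all of these. Cyp2j5 and Cyp2j9, also on chromosome 4, differed by 0.13 (interval -0.05 to 0.31) and -0.01 (interval -0.23 to 0.21) over both times and were not called.

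Cyp2r1, a 25-hydroxylase of vitamin D, measured 10.8, 9.75 and 11.2 RPKM in WT and 16.1, 12.4 and 15.8 in KO at CT0. Values at CT12 were 9.67, 9.58 and 7.97 RPKM in WT and 13.99, 12.4 and 13.0 in KO. The genotypes did not overlap, and Cyp2r1 rose by 0.49 ± 0.11 (SE, adjusted p = 0.017) at CT12 and 0.46 ± 0.08 (SE, adjusted p = 0.0027) over both times. The call at CT12 was lost without replicate 3 of WT or replicate 1 of KO at CT12 (adjusted p = 0.076 and 0.058).

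Cyp2g1, known from the olfactory lining of the nose, was near the limit of the test. It measured 0.0857, 0.539 and 0.735 RPKM in WT and 0.217, 0.379 and 0.377 in KO at CT0, which overlapped. Its values at CT12 were 1.84, 1.51 and 1.01 RPKM in WT and 0.0748, 0.367 and 0.553 in KO, which did not. It passed the filter only through the WT group at CT12, so a difference from that group was built into its choice and the values that follow are a description. Its log2 difference at CT12 was -0.88 ± 0.20 (SE, adjusted p = 0.015), a call lost without replicate 1 of WT or of KO at CT12 (adjusted p = 0.060 and 0.055) and with a pseudocount of 0.1 (adjusted p = 0.056). Its call over both times (adjusted p = 0.041) was lost when any 1 of 9 libraries was left out (adjusted p = 0.062 to 0.099) and under the replicate block (adjusted p = 0.050).

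**Figure D3:**
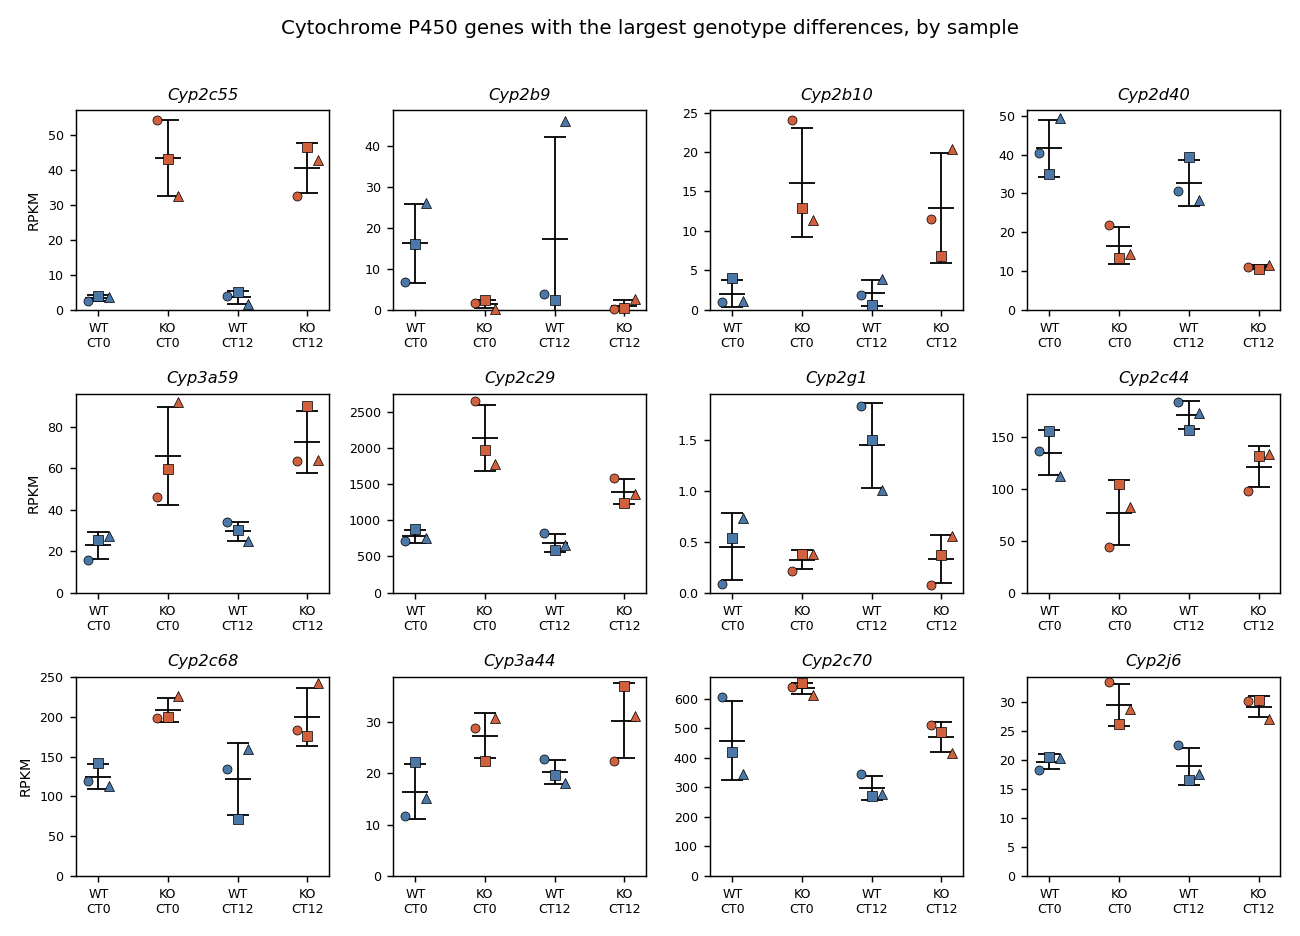
RPKM in each of the 12 livers for the 12 called genes with the largest genotype difference at either time, on linear axes that start at 0. Blue is WT and red KO, circle, square and triangle are replicates 1, 2 and 3, and bars are the group mean with SD, cut off at 0. Cyp2c55, Cyp2b10, Cyp2c29 and Cyp3a59 separate upward in KO and Cyp2d40 downward, while for Cyp2b9 replicate 3 of WT at CT12 stands at 45.9 RPKM.

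Several well-known genes of the families showed no called difference. Cyp2e1 differed by -0.26 over both times, with an interval of -0.57 to 0.05, and its genotypes overlapped at CT0 and not at CT12, where all KO values were lower. Cyp1a2, the enzyme of caffeine oxidation and the 1 Cyp1 gene past the filter, measured 159, 184 and 167 RPKM in WT and 151, 169 and 163 in KO at CT0. By CT12 the values were 214, 219 and 195 RPKM in WT and 173, 256 and 151 in KO, with an interval of -0.35 to 0.13 for the difference over both times. Cyp2f2, which activates naphthalene, had an interval of -0.24 to 0.12, and Cyp2u1, a fatty acid hydroxylase, one of -0.45 to 0.43. Changes within these intervals could not be told from none.

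Between the times of day, 3 of the 37 genes (8.11%) were called in WT, near the 11.6% of all genes tested. Of these 3 genes, 2 had more and 1 had less RNA at CT12 than at CT0. Among all genes 3.71% were called higher and 7.88% lower at CT12. Cyp2e1 was higher at CT12 in WT by 0.72 ± 0.20 (SE, adjusted p = 0.038), with no overlap, and its difference in KO was 0.69 (adjusted p = 0.095). Cyp2g1 differed by 0.77 in WT (adjusted p = 0.03), but it was tested only because the WT mean at CT12 passed the filter, and its call is no support for a time difference. Cyp2c70 was lower at CT12 in WT, with a log2 difference of -0.59 ± 0.17 (SE, adjusted p = 0.049), though replicate 3 at CT0 and replicate 1 at CT12 were level. Each of these calls was lost when single libraries were left out, 7 of 12 for Cyp2e1 (adjusted p = 0.050 to 0.13), 4 for Cyp2g1 (0.062 to 0.10) and 11 for Cyp2c70 (0.052 to 0.15). In KO none was called (limma, against 2.43% of all genes), and 1 was called without replicate 2 of KO at CT0. There 10 had an unadjusted p under 0.05, with no share of all genes computed. The median difference between times was 0.03 in WT and -0.03 in KO. Samples from CT0 and CT12 alone cannot show a rhythm.

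The spread between mice of a group was wider for these genes than for most. The median SD within groups was 0.28 on the log2 scale over the 37, against 0.16 over all genes tested. It was largest for Cyp2b9 (1.28), Cyp2c69 (1.03), Cyp2c40 (1.03), Cyp2b10 (0.71) and Cyp2c38 (0.64). At CT12 replicate 3 was the highest of its group in both genotypes for 10 of the 37 genes, or 27.0%, against 9.66% of all genes tested. Among the 10, Cyp2c37, Cyp2c40, Cyp2c54, Cyp2c68 and Cyp2c69 share 25.0% to 51.4% of their 50-base windows with other genes. How reads with several matches were counted is not given. The 10 may thus not be separate observations, and 27.0% may overstate the pattern. Cyp2c40, a female-predominant gene, was measured on a transcript of 382 bases, with 46.2% of its 50-base windows in other genes. Its longest transcript, of 1803 bases, had lower means, 8.18 and 12.7 RPKM in WT and 29.3 and 28.8 in KO at CT0 and CT12. On the shorter transcript Cyp2c40 measured 19.2, 4.63 and 46.3 RPKM in WT and 27.2, 18.8 and 99.6 in KO at CT12. At CT0 it measured 19.0, 13.8 and 12.4 RPKM in WT and 54.4, 39.3 and 78.1 in KO, which did not overlap (adjusted p = 0.24). Cyp2c69, its near copy, measured 3.89, 1.23 and 11.2 RPKM in WT and 6.50, 2.65 and 22.2 in KO at CT12. Cyp2d9 went the other way and was lowest in both of these mice.

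**Figure D4:**
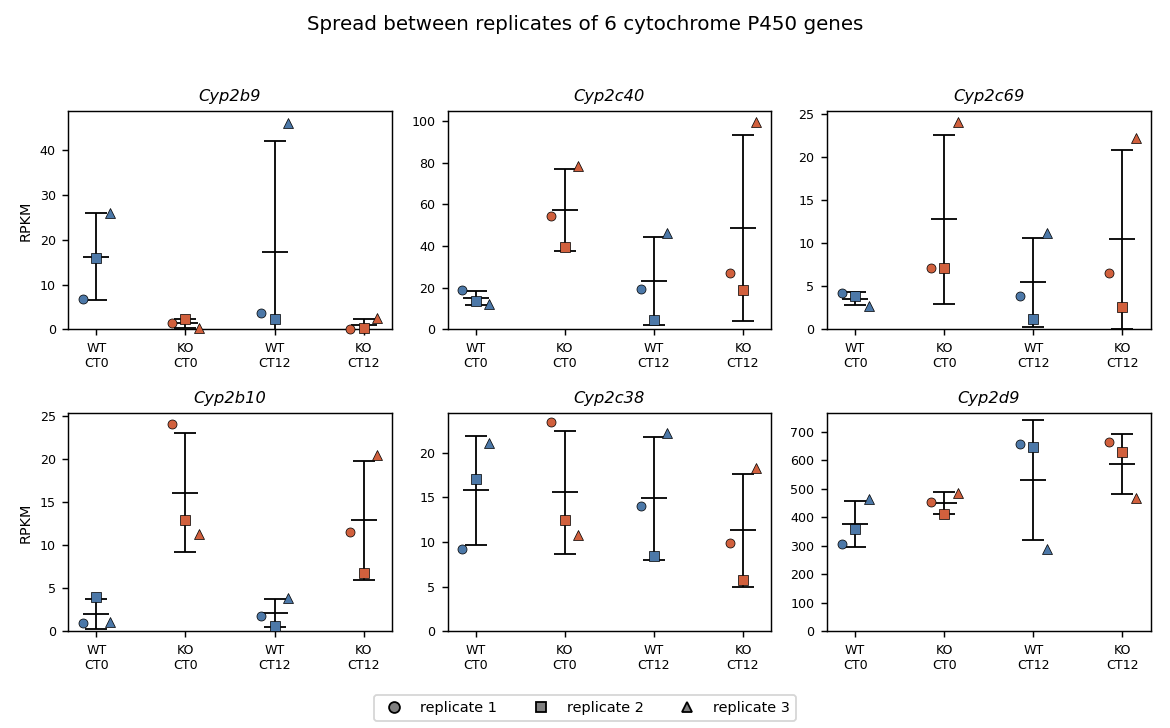
RPKM in each liver for 6 genes chosen for their spread after their values were seen. Blue is WT and red KO, circle, square and triangle are replicates 1, 2 and 3, and bars are the group mean with SD, cut off at 0. At CT12 the triangle of each genotype is the highest of its group for 5 of the genes and the lowest for Cyp2d9.

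The same 2 mice differed in other genes whose level depends on sex. The summed RPKM of 13 male-predominant liver genes outside the families was 8101, 11246 and 3916 in WT and 7015, 9362 and 3567 in KO at CT12, lowest in replicate 3 of both. The sum of 5 further P450 genes of female predominance was 275, 127 and 427 in WT and 30.5, 42.04 and 115 in KO, highest in replicate 3 of both. Most of that sum was Cyp4a10, at 210, 80.3 and 358 RPKM in WT and 22.5, 32.4 and 105 in KO. Cyp2a4 and Cyp17a1 were highest in replicate 3 in WT only, and Cyp3a41a in KO only. The part of these 2 mice in the genotype differences was not tested beyond leaving them out. Without both, 7 P450 genes were called at CT12 in place of 11, 13 over both times in place of 17 and 6 at CT0. The share of all genes called in that smaller fit was not computed. The loss of these mice and the smaller number of samples cannot be told apart.

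Of the 13 male-predominant genes, Elovl3 and Hsd3b5 rose and Cyp4a12a, Mup1, Serpina1e and Slco1a1 fell in KO over both times, and the median difference of the list was -0.18. Of the 5 further P450 genes of female predominance 4 passed the filter, and Cyp2a4, Cyp17a1 and Cyp4a10 fell. Cyp2a4, a female-predominant steroid hydroxylase outside the rule used here, measured 56.9, 38.5 and 57.5 RPKM in WT and 2.42, 3.39 and 2.60 in KO at CT12. That fall stands beside the fall of female-predominant Cyp2b9 and the rise of female-predominant Cyp3a44, which is uncertain as a single gene. Female-predominant Cyp2c40 also had higher means in KO, 57.3 against 15.0 RPKM at CT0 and 48.5 against 23.3 RPKM at CT12. Cyp2c40 is likewise uncertain as a single gene and was not called, except over both times with its longest transcript (limma, adjusted p = 0.043). The female-predominant genes thus went both ways.

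The partner genes of these enzymes moved in their own ways. Of 16 genes for electron supply and haem, 15 were in the tables and passed the filter, and over both times Hmox1 and Uros rose and Blvrb, Fech and Por fell. Por measured 40.1, 73.8 and 52.9 RPKM in WT and 47.1, 35.8 and 43.1 in KO at CT0, which overlapped. The CT12 values were 207, 171 and 206 RPKM in WT and 68.3, 46.4 and 47.4 in KO, a log2 difference of -1.85 (adjusted p = 1.3e-04). Por rose with time in WT by 1.83 on the log2 scale (adjusted p = 1.9e-04). Alas1, the first enzyme of haem synthesis, also rose with time in WT, by 3.95 (adjusted p = 6.0e-05) and in KO by 2.39 (adjusted p = 0.012), and did not pass the test between genotypes at CT12 (adjusted p = 0.085).

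Of 13 receptors and partners that govern these genes, 11 passed the filter, none rose in KO and 2 fell over both times, Nr1i3 and Ppara. Among all genes tested 7.44% were called higher and 4.03% lower, so that none of 11 rose says little about the list. Nr1i3, which encodes CAR, measured 59.3, 88.5 and 87.4 RPKM in WT and 38.2, 56.6 and 49.4 in KO at CT0, and 121, 117 and 147 in WT and 56.8, 68.0 and 92.1 in KO at CT12. KO lay below WT at both times, with a log2 difference of -0.76 (adjusted p = 0.0048) over both, while its known target Cyp2b10 was higher in KO. Nr1i2, which encodes PXR, and Ahr differed by -0.33 (adjusted p = 0.058) and 0.14 (adjusted p = 0.34). In WT, Nr1i2, Nr1i3, Nr1h4 and Ppara were higher at CT12 than at CT0, where 3.71% of all genes were called higher. None of the list was called with time in KO or for the interaction (limma, against 2.43% and 1.49% of all genes). The median time difference of the list was 0.29 in WT and 0.28 in KO.

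The PAR bZIP factors DBP, TEF and HLF, clock outputs that bind the D-box and act on several P450 genes and on receptors, had the largest median time difference in WT of these lists, 1.52 with Nfil3 included. Dbp measured 21.7, 33.4 and 17.3 RPKM in WT and 3.29, 8.11 and 4.66 in KO at CT12, a log2 difference of -2.005 (adjusted p = 4.9e-04). Tef was higher in KO at CT0 by 0.94 (adjusted p = 9.4e-04) and lower at CT12, at -0.94 (adjusted p = 1.5e-04). Nfil3, a repressor at the same element, fell in KO at CT0, at -0.66 (adjusted p = 0.047), and Hlf was not called between genotypes. No P450 gene of the families showed such a crossing of the genotypes that passed a test.

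RefSeq windows were at hand for 46 of the 53 genes (49 windows) and for 14 of the 17 called between genotypes. They were searched on both strands for the E-box CACGTG that BMAL1 and CLOCK bind, for the D-box as TTATGTAA or TTACGTAA, and for GCGTG. The E-box occurred in 1 of 49 windows (2.04%) against 7.15% of all 32851 windows, and the D-box in none (0%) against 1.06%. GCGTG occurred in 10 (20.4%) against 32.4%. The single E-box was in the window of Cyp2j6 at chr4:96220293-96220592 (minus strand), where it begins at position -44 from the start, and that window is printed with the motif in capitals.
Cyp2j6: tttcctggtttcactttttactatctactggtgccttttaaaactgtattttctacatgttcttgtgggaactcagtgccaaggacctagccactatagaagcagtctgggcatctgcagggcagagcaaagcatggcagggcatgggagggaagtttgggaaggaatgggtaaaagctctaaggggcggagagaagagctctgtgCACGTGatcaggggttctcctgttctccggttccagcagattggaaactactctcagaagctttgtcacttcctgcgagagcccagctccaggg
Among the called genes GCGTG was found for Cyp2b10, Cyp2c68 and Cyp2r1. A match is only a description of letters, and elements further away were not searched.

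Markers of cell types were set beside these results. Of 5 hepatocyte markers Alb fell (log2 difference -0.93 at CT0 and -1.05 at CT12) and the other 4 were not called between genotypes. Of 8 pericentral markers past the filter (of 9), Lect2 and Oat rose over both times and Lgr5 rose at CT12, and Glul, the defining one, was not called (adjusted p = 0.99). Of 10 periportal markers Ass1 rose over both times. No marker of Kupffer cells (8 past the filter of 9), sinusoidal endothelium (6 of 6) or stellate cells (6 of 6) was called between genotypes. Their summed RPKM ranged over 154 to 203 in WT and 138 to 199.9 in KO at CT0 for Kupffer cells, and 96.7 to 146 and 102 to 181 at CT12. Of 5 cholangiocyte markers 4 passed, and Spp1 rose, while Krt19, Krt7 and Epcam were at most 2.10 RPKM in any sample and were not called. The cholangiocyte sum, nearly all of it Spp1, was 48.6 to 64.8 RPKM in WT and 93.1 to 152 in KO at CT0, and 27.2 to 49.97 and 88.4 to 124 at CT12. None of 5 lymphocyte markers passed the filter, with sums of at most 1.73 RPKM. Of 3 erythroid markers Alas2 fell over both times. What part Alb, Spp1 and the other markers have in the P450 differences was not tested.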

How the data were processed

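RNA was measured in 12 mouse livers, 3 per genotype and time. The labels' protocol speaks of 2 mice per genotype and time where 3 samples are listed. The published methods give 3 knockout and 3 wild-type mice for CT0 and CT12, as the listed samples do. The deposited values are RPKM per transcript, which the authors computed from reads aligned to the mouse genome. The submitters' processing notes name TopHat2, bedtools 2.19.1 and build mm9, which is NCBIM37, and how reads with several matches were counted is not given in the sources used here. For each symbol the transcript row with the highest mean was used.

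Log2(RPKM + 1) was fitted by limma 3.58.1 in R 4.3.3 (eBayes with trend) on 4 group means over all 12 samples, for genes whose group mean reached 1 RPKM in any group, with Benjamini-Hochberg adjustment and a threshold of 0.05. P-values measure the spread between these samples. The script was tested on simulated data. Depth was recovered from whole steps of the low values, 96.3% to 96.8% of which lay within 0.1 read. Shared sequence was counted in windows of 50 bases, and closest transcripts were found with blastn 2.17.0. Promoter windows are RefSeq's (GRCm38.p6 table).

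The genes and lists were chosen with earlier results of these data known. The genes given by sample were the 8 most abundant, the 12 called with the largest genotype difference and those called with time. Cyp1a2, Cyp2c40, Cyp2c69, Cyp2d22, Cyp2r1 and Cyp3a13 were added after their values were seen. Alternatives were another pseudocount, no filter, quantile normalization, the longest row, a replicate block, fewer samples in the fit and leaving out samples. The result of 1 further list of liver genes is not reported here.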

Additional observations from a re-analysis of the deposited data

How the results depend on the processing

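Under all alternatives together, 14 of 37 called differences of the P450 genes kept their call and 23 lost it at least once. The kept ones were 3 of 6 at CT0, 4 of 11 at CT12, 7 of 17 over both times and 0 of 3 with time in WT. Without the filter on low values 3 genes were called at CT0, 5 at CT12, 8 over both times and 0 with time in WT. With only the samples compared in the fit, 1 was called with time in WT. Without replicate 3 of both genotypes at CT12, an alternative chosen after seeing the data, 7 were called at CT12. Leaving out each library in turn gave 4 to 8 at CT0, 6 to 12 at CT12 (6 without replicate 1 of KO), 14 to 16 over both times, 0 to 2 with time in WT, 0 to 1 with time in KO and 0 for the interaction. The share of all genes called was not computed under the alternatives. The KO minus WT difference of Cyp2g1 at CT0 ran from -0.31 to 0.032 when 1 library was left out, above 0 without replicate 3 of WT at CT0. With the longest transcript per symbol, Cyp2c40 was also called over both times (1.44, adjusted p = 0.043). The causes were not tested. Replicate numbers did not pair the samples, since 2 of 18 same-numbered pairs had an r above 0.1 and 5 of 12 samples lay nearest to their own number. With the replicate block 5, 11 and 16 genes were called at CT0, at CT12 and over both times, 3 and 0 with time in WT and KO, and 0 for the interaction. Depth limits the genes under 1 RPKM.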
